A study of Mus musculus with 6 samples.

Results

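The genes described here are 10 that handle fatty acids and stored fat in macrophages: the nuclear receptor genes Pparg and Ppard, the lipase gene Lpl, the fatty acid binding protein genes Fabp4 and Fabp5, the acyltransferase genes Dgat1 and Dgat2, the lipid droplet coat gene Plin2, the triglyceride lipase gene Pnpla2 and the mitochondrial entry gene Cpt1a. They were chosen by symbol, with transcript counts summed per gene, and all 10 were found among 55263 genes. Each passed the filter on low counts and was among the 17113 genes tested. RNA had been sequenced from bone marrow-derived macrophages, cells grown from mouse marrow, in 3 groups of 2 libraries. The first group was given LPS with an agent labelled HACA, the next was given lipopolysaccharide (LPS) alone, the endotoxin that macrophages detect through TLR4, and the last was the control. The labels name a wild-type genotype for the control and a treatment in that field for the other groups. They use HACA without expanding it, and they hold no dose, time, strain, sex or age. The series title concerns a hyaluronic acid nanomedicine in a psoriasis mouse model, and nothing says whether replicate libraries had their own culture or mouse. The p-values therefore measure the spread between these libraries only, and it may be technical.

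PPAR receptors are ligand-activated transcription factors that bind DNA together with RXR partners and respond to fatty acids and their derivatives. In macrophages, PPARγ is known for its part in lipid uptake and in restraining inflammatory genes, and the fat a macrophage takes up is esterified, stored in droplets coated by perilipin 2, released by lipases and burned in mitochondria or peroxisomes. LPS-treated macrophages are known to change this balance between storage and oxidation.

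Plin2, Pparg and Cpt1a were the members that fell in LPS libraries against control, and the sequence before their RefSeq start sites is shown for that reason. The promoter table from RefSeq (GRCm38.p6) held 7 start sites for 5 of the 10 genes (Pparg, Ppard, Plin2, Pnpla2 and Cpt1a). The 250 bases before each start were searched on both strands for the element bound by PPAR with RXR, AGGTCA followed after 1 base of any kind by AGGTCA again, with up to 2 mismatches. Of 32817 promoters in the table, 1061 (3.23%) held a match, and 1 of the 7 member promoters did. That was the promoter of Plin2, where the match GGACCCCTGACCT, with the motif on the opposite strand, lay 225 to 213 bases before the start with 2 mismatches. The sequences below run 5′ to 3′ on the strand of the gene, stop before the first base that GENCODE annotates as exon, and carry the motif match in capitals. They cover chr4:86670061-86670309 on the minus strand for Plin2, chr6:115360894-115360950, chr6:115362099-115362291 and chr6:115421816-115422065 on the plus strand for Pparg, and chr19:3323051-3323284 on the plus strand for Cpt1a.
Plin2: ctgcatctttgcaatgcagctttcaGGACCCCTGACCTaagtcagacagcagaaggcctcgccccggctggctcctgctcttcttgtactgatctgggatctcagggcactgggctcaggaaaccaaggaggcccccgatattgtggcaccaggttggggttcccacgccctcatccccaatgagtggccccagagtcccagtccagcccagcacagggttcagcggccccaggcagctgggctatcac
Pparg, start at 115361144: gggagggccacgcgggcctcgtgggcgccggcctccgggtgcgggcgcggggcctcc
Pparg, start at 115362349: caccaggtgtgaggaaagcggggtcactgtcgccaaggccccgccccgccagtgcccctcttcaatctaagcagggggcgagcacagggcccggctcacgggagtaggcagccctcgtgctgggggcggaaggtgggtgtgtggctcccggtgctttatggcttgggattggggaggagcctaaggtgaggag
Pparg, start at 115422066: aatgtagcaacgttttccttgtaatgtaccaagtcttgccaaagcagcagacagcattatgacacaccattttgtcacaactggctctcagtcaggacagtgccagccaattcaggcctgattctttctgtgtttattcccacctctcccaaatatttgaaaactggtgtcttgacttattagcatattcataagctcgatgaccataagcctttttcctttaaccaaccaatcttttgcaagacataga
Cpt1a: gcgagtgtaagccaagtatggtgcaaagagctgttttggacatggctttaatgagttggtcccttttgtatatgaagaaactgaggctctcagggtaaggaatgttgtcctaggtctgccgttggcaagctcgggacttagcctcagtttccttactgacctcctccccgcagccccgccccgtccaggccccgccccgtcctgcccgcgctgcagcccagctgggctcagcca
The 250 bases held 61.6% G and C for Plin2, 82.4%, 63.6% and 40.8% for the starts of Pparg in the order printed, and 59.6% for Cpt1a, against a median of 52.4% over all promoters. The sequence for the Pparg start at 115361144 is short because 193 of its 250 bases lie in the first exon of Pparg-202. A match describes letters only, and a promoter without one says nothing about binding.

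Library totals were 13933604 and 13007575 counts with LPS+HACA, 12529874 and 15379496 with LPS and 13806911 and 13036776 in control, and the 10 genes together made up 0.0777% to 0.194% of the counts in a library. The macrophage gene Lyz2 stood at 30358 to 47787 CPM (library-scaled counts, with TMM factors) in every library, while Adgre1, another macrophage marker, stood at no more than 0.674 CPM. Other macrophage markers differed between the groups: Mertk stood at 53.9 and 72.5 CPM in LPS+HACA, 39.1 and 50.7 CPM in LPS and 128.9 and 160.3 CPM in control, Csf1r at 45.7 and 54.4, 19.6 and 33.2, and 34.2 and 41.8 CPM in those groups, Itgam at 1.76 and 0.609, 0.197 and 0.193, and 1.82 and 1.72 CPM, and Cd14, which LPS is known to induce, at 574.6 and 779.4, 2785 and 5262, and 331.4 and 419.7 CPM. Summed marker levels of other lists also moved with the groups: the dendritic list stood at 11.0 and 12.6 CPM in LPS+HACA, 24.9 and 26.8 CPM in LPS and 8.09 and 9.86 CPM in control. Most of its rise was Xcr1, at 3.77 and 2.10, 18.7 and 13.6, and 1.44 and 1.12 CPM in those groups, and Ccr7 rose too. Zbtb46 overlapped between the groups, at 6.01 and 9.26, 3.84 and 8.86, and 5.08 and 6.68 CPM. Flt3 overlapped between LPS and control, and Cd209a had 0 counts. The endothelial list stood at 17.3 and 12.04, 58.3 and 30.2, and 5.14 and 3.84 CPM, carried by Kdr, with Tek and Emcn at 0. The cell cycle list stood at 1430 and 376.3 CPM in LPS+HACA, 1933 and 1073 CPM in LPS and 718.7 and 199.9 CPM in control. Most of it was Mki67, at 977.1 and 313.5, 1423 and 988.4, and 496.7 and 127.7 CPM in those groups. The genes of this list did not all move alike. Pcna stood at 67.8 and 37.5, 76.6 and 63.9, and 46.1 and 45.6 CPM. Cdk1 was not highest in LPS, at 8.99 and 1.76, 5.81 and 0.289, and 9.22 and 1.52 CPM. The part of these lists in the values below was not tested. Of 7 adipocyte markers, Adipoq, Lep, Cidec and Adrb3 had 0 counts in all libraries, and the summed level of the list was at most 0.794 CPM. As given below, member counts lay almost wholly on bases of a single transcript, and reads in shared exons were largely missing. Whether this holds for the marker genes was not tested, so a marker at or near 0 cannot be read as absent. In these bulk libraries, fewer cells of a type and less RNA per cell cannot be told apart. TMM factors were 1.19 and 1.14 with LPS+HACA, 0.812 and 0.677 with LPS and 1.16 and 1.16 in control. With library totals in place of TMM, all genes had a median log2 fold change of 0.70 for LPS+HACA against LPS and −0.69 for LPS against control, where TMM gave 0.06 and −0.05.

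A gene was called at a Benjamini-Hochberg adjusted p under 0.05 in edgeR's quasi-likelihood test. In LPS+HACA libraries against LPS libraries, 0 members were higher and 1 was lower (Dgat2), while 13.4% of all genes tested were called, 5.74% higher and 7.67% lower. In LPS libraries against control, 1 member was higher (Dgat2) and 3 were lower (Pparg, Plin2 and Cpt1a), while 30.1% of all genes were called, 15.9% higher and 14.3% lower. In LPS+HACA against control, 0 members were called in either direction, where 1.15% of all genes were. Under library totals, 4 members were higher and 0 lower in LPS+HACA against LPS, where all genes had 3501 higher and 522 lower. In LPS against control, library totals gave 0 members higher and 5 lower, where all genes had 1417 higher and 5111 lower. With TMM, 10%, 40% and 0% of the members were called in either direction, beside 13.4%, 30.1% and 1.15% of all genes. Each share rests on 10 genes and is not read as a result about the members. At an unadjusted p under 0.05, 3 members were higher (Pparg, Plin2 and Cpt1a) and 1 lower (Dgat2) in LPS+HACA against LPS. In LPS against control 2 were higher (Dgat2 and Lpl) and 4 lower (Pparg, Plin2, Pnpla2 and Cpt1a). In LPS+HACA against control 0 were higher and 2 lower (Plin2 and Fabp5). The share of all genes at the unadjusted threshold was not computed, here or for the lists below. DESeq2 called 1 member higher and 1 lower in LPS+HACA against LPS, where 1221 and 1799 of all genes were. With limma-voom these were 0 and 1 members, and 588 and 1249 genes. Both called 0 members in LPS+HACA against control, where 666 genes were called with DESeq2 and 119 with limma-voom.

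The libraries of the compared groups did not overlap for 5 of 10 members in LPS+HACA against LPS, 7 of 10 in LPS against control and 4 of 10 in LPS+HACA against control, where 57.7%, 66.7% and 46.5% of all genes did not. The median log2 fold change of the members was 0.16 in LPS+HACA against LPS, with 0.06 over all genes, and −0.56 in LPS against control, with −0.05 over all genes. For LPS+HACA against control it was −0.30, with 0.00416 over all genes. The comparisons share libraries, the LPS libraries serving in the first and the second, so a gene that stands apart in LPS alone moves in opposite directions in both.

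**Figure D1:**
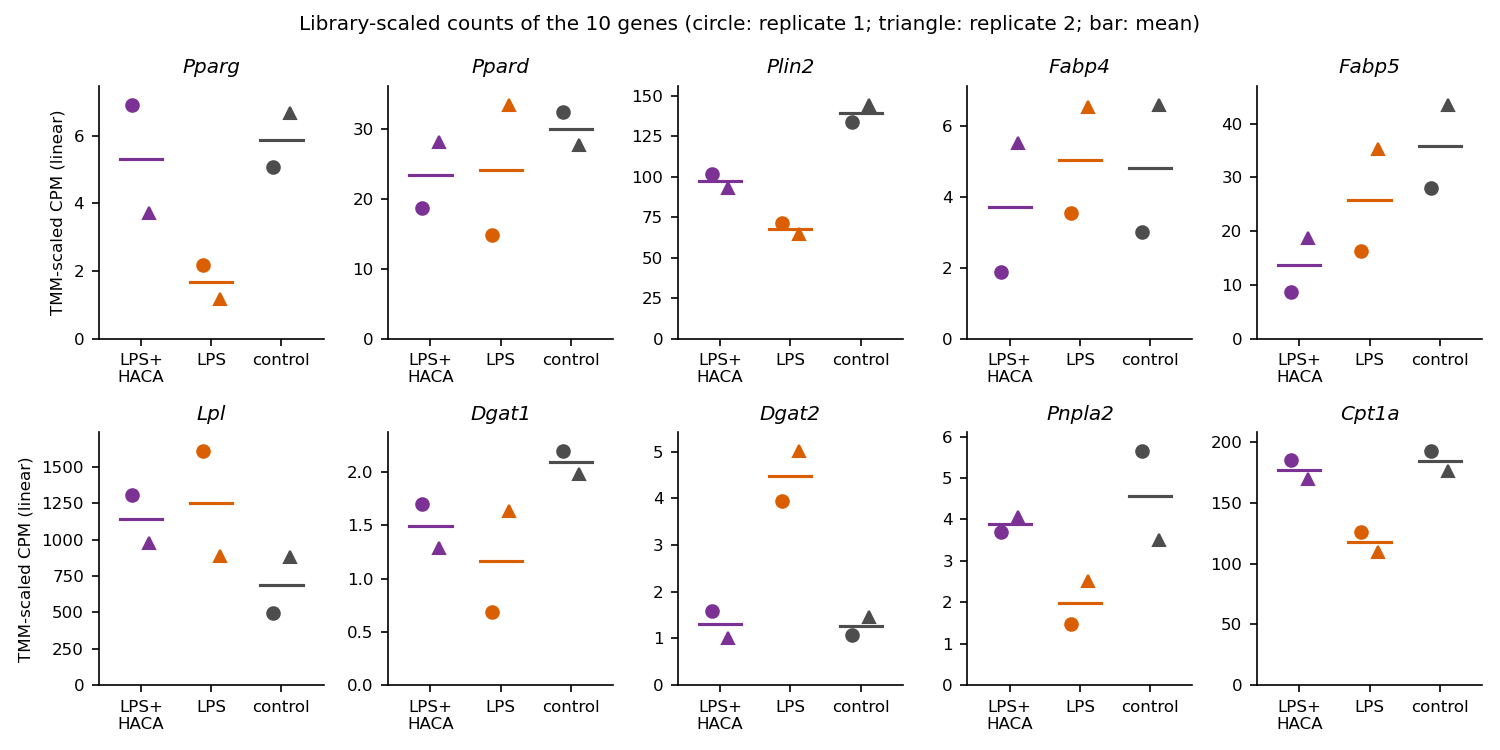
TMM-scaled CPM (linear axis from 0, each panel with its own scale) of the 10 genes in each library, with LPS+HACA, LPS and control from left to right, circles for replicate 1, triangles for replicate 2 and a bar at the mean. Dgat2 was at 3.94 and 5.01 CPM in LPS libraries and no higher than 1.58 CPM in the other libraries, and Plin2 was lowest in LPS and highest in control without overlap.

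The receptor gene Pparg (chromosome 6, 115360951 to 115490399, plus strand) had 6.92 and 3.72 CPM in LPS+HACA libraries, 2.17 and 1.16 CPM in LPS libraries, and 5.08 and 6.68 CPM in control libraries. Both LPS libraries lay below all others, and the LPS+HACA and control libraries overlapped. Pparg fell 3.53-fold in LPS against control (log2 fold change −1.82 ± 0.47, SE, adjusted p = 0.0223). The value for LPS+HACA against LPS was 1.68 ± 0.47 (adjusted p = 0.053), just short of the threshold, and DESeq2 gave an adjusted p of 0.0262. LPS+HACA against control stood at −0.14 ± 0.43 (adjusted p = 0.969), with a 95% interval of −1.13 to 0.84. The fall in LPS no longer passed without control replicate 1 (adjusted p = 0.0674), without control replicate 2 (0.128) or without LPS replicate 2 (0.0707).

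Pparg uses several start sites, and its counts could be read by start. The transcript Pparg-202, which starts at 115360951, held 59.0% of the gene's counts, with 72 and 30 raw counts in LPS+HACA, 16 and 10 in LPS and 46 and 53 in control. Pparg-207, which starts at 115383699, had 18 and 9 counts in LPS+HACA, 3 and 0 in LPS and 12 and 19 in control. Pparg-201, which starts at 115422066, where the last of the printed Pparg sequences ends, had 5 and 0 counts in LPS+HACA, 0 and 0 in LPS and 9 and 4 in control. Each of these transcripts had its lowest summed count in LPS. On Pparg-202 alone, the change in LPS against control was −1.39 (adjusted p = 0.0748).

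Ppard, the gene of the more widely expressed receptor PPARδ (chromosome 17, 28232700 to 28301474, plus strand), had 18.8 and 28.1 CPM in LPS+HACA, 14.8 and 33.5 CPM in LPS and 32.5 and 27.7 CPM in control. The LPS libraries spanned those of the other groups. No comparison passed, at −0.04 ± 0.40 for LPS+HACA against LPS, −0.32 ± 0.39 for LPS against control and −0.36 ± 0.39 for LPS+HACA against control (adjusted p = 0.957, 0.584 and 0.853). The first of these turned to 0.65 under library totals. Without LPS replicate 2, Ppard was called lower in LPS against control (−1.02, adjusted p = 0.0484).

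Rxra, the gene of an RXR partner, had 34.6 and 45.8 CPM in LPS+HACA, 11.4 and 12.3 CPM in LPS and 102.3 and 116.5 CPM in control. The libraries of the 3 groups did not overlap. Rxra fell in LPS against control (−3.20 ± 0.25, adjusted p = 0.00021), rose in LPS+HACA against LPS (1.76 ± 0.24, adjusted p = 0.00669) and was lower in LPS+HACA than in control (−1.44 ± 0.24, adjusted p = 0.0344). The first of these calls, and the second, held in all 6 fits that left out 1 library, and the third was lost without either control or either LPS+HACA library (adjusted p = 0.133 to 0.345). Rxrb, the other RXR gene with enough counts, stood at 0.33 ± 0.38 and −1.06 ± 0.38 in LPS+HACA against LPS and LPS against control (adjusted p = 0.596 and 0.0682). Ppara, the liver-type receptor, had 1 count in all libraries together and was not tested.

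Of 15 listed PPAR partners and co-regulators, 12 were tested. Of these, 1 was higher and 1 lower in LPS+HACA against LPS (median 0.45), and 3 were higher and 4 lower in LPS against control (median −0.64). Ppargc1b, the coactivator PGC-1β, fell in LPS against control (−2.76 ± 0.61, adjusted p = 0.0117), where it had 3 and 4 counts in LPS and 25 and 48 in control, and no longer passed without control replicate 2 (0.0988). Med1, the Mediator subunit that docks nuclear receptors, went the other way, rising in LPS against control (1.09 ± 0.21, adjusted p = 0.00701) and falling in LPS+HACA against LPS (−0.80 ± 0.21, adjusted p = 0.0435). The acetyltransferase gene Crebbp rose in LPS against control (0.89 ± 0.23, adjusted p = 0.0214). The Med1 and Crebbp rises were lost without either control library and under library totals, that of Crebbp also without LPS replicate 2 (adjusted p = 0.0585), and the Med1 fall was lost in 5 of the 6 fits without 1 library.

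Lpl encodes lipoprotein lipase, which frees fatty acids from circulating lipoproteins. It lies on chromosome 8 (68880491 to 68907448, plus strand) and was the member with the highest level per transcript length, at a mean authors' FPKM of 292.9 in LPS+HACA, 320.8 in LPS and 179.4 in control. Its CPM were 1308.5 and 979.98 in LPS+HACA, 1608 and 889.99 in LPS and 495.2 and 880.2 in control. Control libraries were lowest, the higher of them only just below the lower LPS library. LPS against control stood at 0.86 ± 0.36 (adjusted p = 0.111), LPS+HACA against LPS at −0.13 ± 0.36 (adjusted p = 0.847, 0.48 under library totals) and LPS+HACA against control at 0.73 ± 0.36 (adjusted p = 0.507).

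Fabp5 and Fabp4 encode carriers that move fatty acids inside the cell. Fabp5 (chromosome 3, 10012548 to 10016607, plus strand) had 8.75 and 18.8 CPM in LPS+HACA, 16.4 and 35.4 CPM in LPS and 27.98 and 43.5 CPM in control. Both LPS+HACA libraries lay below both control libraries, and LPS overlapped with each. The largest of its values, −1.38 ± 0.48 for LPS+HACA against control, did not pass (adjusted p = 0.298), and it was −0.37 (adjusted p = 0.951) on protein-coding transcripts alone.

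Fabp4 (chromosome 3, 10204088 to 10208576, minus strand), a textbook PPARγ target, had 1.88 and 5.54 CPM in LPS+HACA, 3.55 and 6.55 CPM in LPS and 3.01 and 6.61 CPM in control. All groups overlapped, and no comparison passed (−0.45 ± 0.60, 0.07 ± 0.60 and −0.38 ± 0.60, adjusted p = 0.654, 0.942 and 0.923). Under library totals the value in LPS against control turned to −0.60 and that in LPS+HACA against LPS to 0.22. In each group replicate 2 was the library with more Fabp4 and Fabp5. That library also had more summed neutrophil marker CPM (37.05 beside 4.98 in LPS+HACA, 64.2 beside 13.8 in LPS, 39.95 beside 7.59 in control). Its summed stromal marker CPM was lower (1.42 beside 50.3, 2.31 beside 32.5 and 1.72 beside 47.9). The same library had the lower summed cell cycle marker CPM in each group. Of the 7 neutrophil markers 4 were tested and S100a9 had 0 counts, and of the 7 stromal markers 3 were tested. The part of these lists in the Fabp values was not tested.

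The transcripts behind these counts differ between the members. The deposited counts lay almost wholly on bases that belong to a single annotated transcript, since 13 of 66 member transcripts shared every base with others, and these had 2 of 110855 counts. Such bases made up 26.0% of exonic bases in Dgat1 and up to 85.8% in Fabp4. For Fabp4, 98.1% of the counts were on Fabp4-202, a retained-intron transcript whose 3593 own bases all lie in introns of the coding form, and the coding transcript Fabp4-201 had 7 counts in all libraries. Retained-intron transcripts also held 84.9% of the Fabp5 counts, 95.6% of the Dgat1 counts and 42.6% of the Pnpla2 counts. For Cpt1a, Dgat2, Pparg, Lpl and Plin2, protein-coding transcripts held 96.6%, 97.1%, 89.1%, 86.0% and 80.3%. Reads in exons shared between transcripts are therefore largely missing, and the Fabp4 and Dgat1 values are mostly counts on intron-containing transcripts.

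**Figure D2:**
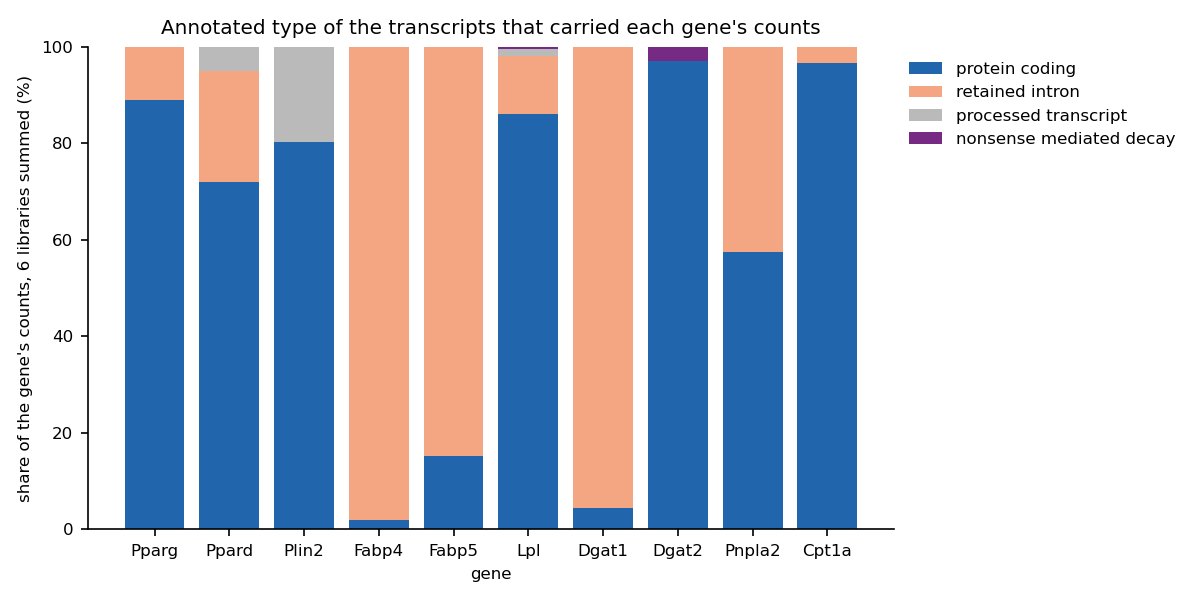
Share of each gene's counts (%, 6 libraries summed, axis from 0 to 100) by the annotated type of the transcript that carried them, 1 stacked bar a gene. Fabp4, Fabp5 and Dgat1 counts were mostly on retained-intron transcripts (98.1%, 84.9% and 95.6%), and Cpt1a and Dgat2 counts on protein-coding ones (96.6% and 97.1%).

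Around these carriers, 17 of 20 listed genes of fatty acid uptake, binding and activation were tested, of which 2 were higher and 6 lower in LPS+HACA against LPS (median −0.16) and 6 higher and 2 lower in LPS against control (median 0.32). Fabp3, the heart-type binding protein, had 11.8 and 13.996 CPM in LPS+HACA, 38.2 and 78.9 CPM in LPS and 5.83 and 4.96 CPM in control. It rose in LPS against control (3.44 ± 0.39, adjusted p = 0.000772) and fell in LPS+HACA against LPS (−2.18 ± 0.36, adjusted p = 0.0111). Acsl1, which couples fatty acids to coenzyme A, had 87.2 and 140.6 CPM in LPS+HACA, 323.6 and 650.4 CPM in LPS and 27.98 and 38.96 CPM in control, and moved the same way (3.86 ± 0.42, adjusted p = 0.000682, and −2.10 ± 0.39, adjusted p = 0.0154). For both genes the LPS libraries lay above all others. A near-identical copy, Fabp3-ps1 (99.3% over 402 bases), could share reads with Fabp3, so its level is uncertain, and Acsl1 shares 1039 bases with the overlapping gene Gm45244.

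The transporter gene Slc27a1 and the lipase maturation gene Lmf1 moved the opposite way. Slc27a1 rose in LPS+HACA against LPS (1.62 ± 0.25, adjusted p = 0.00897) and fell in LPS against control (−2.53 ± 0.26, adjusted p = 0.000514), and Lmf1 rose by 1.44 ± 0.28 (adjusted p = 0.0175) and fell by 1.68 (± 0.28, adjusted p = 0.00388). Protein-coding transcripts held 0.35% of the Slc27a1 counts and 9.74% of the Lmf1 counts. The scavenger receptor gene Cd36, another known PPARγ target, did not pass, at 5.10 and 5.27 CPM in LPS+HACA, 3.35 and 3.56 CPM in LPS and 3.51 and 6.35 CPM in control (adjusted p = 0.332 and 0.341 for LPS+HACA against LPS and LPS against control). Angptl4, which inhibits lipoprotein lipase, had 6 and 0 counts in LPS+HACA, 0 and 0 in LPS and 4 and 7 in control, too few to test. Leaving out LPS+HACA replicate 1 ended the calls of Fabp3, Acsl1, Slc27a1 and Lmf1 in LPS+HACA against LPS (adjusted p = 0.077, 0.095, 0.0543 and 0.113), and that of Lmf1 also ended without either control library or LPS+HACA replicate 2 (0.0549 to 0.0659).

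Dgat1 and Dgat2 encode the unrelated enzymes that catalyse the last step of triglyceride synthesis. Dgat2 (chromosome 7, 99153658 to 99182719, minus strand) had 1.58 and 1.01 CPM in LPS+HACA, 3.94 and 5.01 CPM in LPS and 1.07 and 1.46 CPM in control. The LPS libraries lay above all others, and those of LPS+HACA and control overlapped. Dgat2 rose 3.54-fold in LPS against control (1.82 ± 0.43, adjusted p = 0.0159) and fell 3.42-fold in LPS+HACA against LPS (−1.78 ± 0.43, adjusted p = 0.0337), and LPS+HACA against control stood at 0.05 ± 0.44 (adjusted p = 0.992, 95% interval −0.97 to 1.07). These are calls on 172 counts in all 6 libraries. The rise was lost without control replicate 1 (adjusted p = 0.127) or 2 (0.0763) and under library totals (1.17, adjusted p = 0.0655), and the fall was lost without any library but LPS replicate 1 (0.0751 to 0.18) and under library totals (−1.11, adjusted p = 0.0935), in a fit of these groups alone (0.0769) and on protein-coding transcripts (0.0606).

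Dgat1 (chromosome 15, 76502015 to 76511953, minus strand) had 1.70 and 1.28 CPM in LPS+HACA, 0.690 and 1.64 CPM in LPS and 2.20 and 1.98 CPM in control. Control was highest without overlap, and no comparison passed (0.36 ± 0.53, −0.84 ± 0.52 and −0.48 ± 0.50, adjusted p = 0.688, 0.263 and 0.839). Of 15 listed genes of triglyceride and cholesteryl ester synthesis, 11 were tested, of which 2 were higher and 1 lower in LPS+HACA against LPS (median −0.21) and 2 higher and 3 lower in LPS against control (median 0.31). Agpat4, which acylates lysophosphatidic acid, rose in LPS against control (2.27 ± 0.26, adjusted p = 0.000856) and fell in LPS+HACA against LPS (−1.63 ± 0.26, adjusted p = 0.00919), as Dgat2 did. Gpat4, an enzyme of the first step of glycerolipid synthesis, rose in LPS against control (0.94 ± 0.22, adjusted p = 0.0148).

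The genes of the other direction were Soat1 and Lpin1. Soat1, which makes cholesteryl esters, had 215.2 and 244.2 CPM in LPS+HACA, 112.7 and 93.6 CPM in LPS and 373.3 and 395.5 CPM in control, with no overlap between any of the groups. It rose in LPS+HACA against LPS (1.15 ± 0.21, adjusted p = 0.0134) and fell in LPS against control (−1.90 ± 0.21, adjusted p = 0.000719). Lpin1, the phosphatidate phosphatase lipin 1, had 46 and 38 counts in LPS+HACA, 5 and 2 in LPS and 149 and 184 in control (2.94 ± 0.49, adjusted p = 0.0112, and −4.94 ± 0.48, adjusted p = 0.000442). Protein-coding transcripts held 31.6% of the Lpin1 counts. The calls of Agpat4, Soat1 and Lpin1 in LPS+HACA against LPS were lost without LPS+HACA replicate 1 (adjusted p = 0.0835, 0.0617 and 0.0566), and that of Soat1 also without LPS+HACA replicate 2 (0.0851). The rise of Gpat4 was lost without either control library (0.12 and 0.108) and under library totals (0.29, adjusted p = 0.31).

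Plin2 encodes perilipin 2, the coat protein that marks lipid droplets in macrophages, and lies on chromosome 4 (86648386 to 86670060, minus strand). It had 101.9 and 92.8 CPM in LPS+HACA, 71.2 and 64.6 CPM in LPS and 134 and 144.5 CPM in control. No libraries overlapped between groups, with LPS+HACA between LPS and control. Plin2 fell 2.05-fold in LPS against control (−1.04 ± 0.20, adjusted p = 0.0075), while LPS+HACA against LPS (0.52 ± 0.20, 95% interval 0.05 to 0.99, adjusted p = 0.127) and LPS+HACA against control (−0.52 ± 0.20, interval −0.98 to −0.05, adjusted p = 0.358) did not pass. The fall in LPS was lost without control replicate 2 (adjusted p = 0.0745). Of its other transcripts, Plin2-202, a processed transcript with 702 own bases in introns, had 124 and 90 counts in LPS+HACA, 56 and 49 in LPS and 216 and 286 in control, the same order as the coding Plin2-201, with 1312 and 1119, 589 and 569, and 1503 and 1463 counts in those groups.

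Pnpla2 (chromosome 7, 141455198 to 141460743, plus strand) encodes adipose triglyceride lipase, which starts the breakdown of stored triglyceride. It had 3.70 and 4.06 CPM in LPS+HACA, 1.48 and 2.50 CPM in LPS and 5.65 and 3.51 CPM in control. LPS was lowest without overlap, and LPS+HACA lay within the range of control. LPS against control stood at −1.20 ± 0.42 (adjusted p = 0.0661, and 0.0439 without LPS replicate 2), LPS+HACA against LPS at 0.96 ± 0.42 (adjusted p = 0.17) and LPS+HACA against control at −0.24 ± 0.40 (adjusted p = 0.93).

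Of 20 listed genes of the droplet coat, droplet assembly and lipolysis, 10 were tested, of which 1 was higher and 0 lower in LPS+HACA against LPS (median 0.06; at an unadjusted p under 0.05, 3 and 0, and 0 lower with DESeq2 and limma-voom) and 1 higher and 2 lower in LPS against control (median −0.12). The higher gene was Nceh1, a cholesteryl ester hydrolase (1.03 ± 0.25, adjusted p = 0.0361), which fell in LPS against control (−1.68 ± 0.26, adjusted p = 0.00275). It had 381.1 and 342.7 CPM in LPS+HACA, 217.1 and 136.8 CPM in LPS and 597.1 and 535.9 CPM in control, and its rise was lost in each fit that left out a library other than LPS replicate 1 (adjusted p = 0.0613 to 0.157). Bscl2, the droplet assembly protein seipin, fell in LPS against control (−1.18 ± 0.35, adjusted p = 0.0365) and Abhd5, the coactivator of the Pnpla2 lipase, rose (1.06 ± 0.31, adjusted p = 0.0366). Protein-coding transcripts held 2.83% and 6.79% of their counts, and on those transcripts Abhd5 turned to −0.30 (adjusted p = 0.818). Abhd5 shares 950 bases with A730085K08Rik (100% identity, 163 counts), and Bscl2 402 bases with Gng3 (99.8% identity, 203 counts). Both calls were lost without either control library (adjusted p = 0.109 to 0.204) and without LPS replicate 2 (0.0941 and 0.0811), and that of Bscl2 also without either LPS+HACA library (0.063 and 0.0671).

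Plin3, the other perilipin gene with high counts, had 112.9 and 72.5 CPM in LPS+HACA, 89.3 and 61.7 CPM in LPS and 123.9 and 101.3 CPM in control, and did not pass in LPS+HACA against LPS or in LPS against control (adjusted p = 0.534 and 0.175). Nor did the hormone-sensitive lipase gene Lipe (adjusted p = 0.524 and 0.0809) or Hilpda, an inhibitor of the Pnpla2 lipase (0.481 and 0.427). G0s2, the other inhibitor, had 12 and 7 counts in LPS+HACA, 4 and 4 in LPS and 0 and 5 in control and was not tested.

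Cpt1a encodes the liver-type carnitine palmitoyltransferase, the gate for long-chain fatty acids into mitochondria, and lies on chromosome 19 (3322334 to 3385733, plus strand). It had 185.5 and 169.2 CPM in LPS+HACA, 126.1 and 109.1 CPM in LPS and 192.5 and 176 CPM in control. The LPS libraries were lowest, and LPS+HACA and control overlapped. Cpt1a fell 1.57-fold in LPS against control (−0.65 ± 0.20, adjusted p = 0.0438), stood at 0.59 ± 0.20 in LPS+HACA against LPS (95% interval 0.13 to 1.06, adjusted p = 0.0904) and at −0.05 ± 0.20 in LPS+HACA against control (interval −0.52 to 0.41, adjusted p = 0.975). The fall was lost without any library but LPS replicate 1 (adjusted p = 0.0809 to 0.216), with no filter on low counts (0.0634) and in a fit of these groups alone (0.0726).

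Cpt2, the partner enzyme on the inner membrane, and Slc25a20, the carnitine carrier, did not pass in LPS+HACA against LPS (0.41 ± 0.34 and 0.08 ± 0.28, adjusted p = 0.454 and 0.882) or in LPS against control (−0.41 ± 0.34 and −0.20 ± 0.28, adjusted p = 0.397 and 0.636). Of 22 listed mitochondrial oxidation genes, 21 were tested, of which 2 were higher and 1 lower in LPS+HACA against LPS (median 0.51) and 2 higher and 6 lower in LPS against control (median −0.90). Echs1, the short-chain enoyl-CoA hydratase, rose in LPS+HACA against LPS (1.51 ± 0.41, adjusted p = 0.0475) and fell in LPS against control (−2.26 ± 0.41, adjusted p = 0.00527), with 0% of its counts on protein-coding transcripts. Ucp2, a mitochondrial carrier, fell in LPS against control (−1.37 ± 0.20, adjusted p = 0.00215), and Acadl, the long-chain acyl-CoA dehydrogenase, rose (0.86 ± 0.24, adjusted p = 0.0309), though not under library totals (0.23, adjusted p = 0.533) or without either control library or LPS replicate 1 (0.052 to 0.215). Eci2, an enoyl-CoA isomerase, fell in LPS+HACA against LPS (−1.04 ± 0.28, adjusted p = 0.0465) and rose in LPS against control (1.49 ± 0.28, adjusted p = 0.00656). On its protein-coding transcripts, with 12.1% of the counts, the fall of Eci2 turned to 0.28 (adjusted p = 0.787). Stretches near-identical to Eci2 lie in Gm15287 (95.9% over 612 bases, 2 counts) and Zfp445 (97.0% over 271 bases, 6371 counts), among others. Ucp2 shares 305 bases with Dnajb13 (100% identity, 1442 counts), and Echs1 143 bases with Paox (100% identity, 1106 counts), among others for Echs1. Fits without 1 library ended the rise of Echs1 in 5 of 6 (adjusted p = 0.0906 to 0.172), its fall without control replicate 2 (0.0507), the fall of Eci2 in each (0.0557 to 0.229) and its rise without control replicate 2 (0.0786).

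Acads, the short-chain acyl-CoA dehydrogenase gene, was named after its values were seen, because it had 0 counts in both LPS libraries. It had 11 and 10 counts in LPS+HACA and 12 and 18 in control. With the LPS group set to 3 counts, LPS+HACA was 4.59-fold higher than LPS (adjusted p = 0.039 in the fit). LPS was then 6.61-fold lower than control (adjusted p = 0.0132 in the fit). Counts of the other groups were taken as they stood, so smaller folds remain possible. With that gene at these folds the list medians stayed at 0.51 and −0.90.

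Peroxisomes shorten very long fatty acids, and all 14 listed peroxisomal genes were tested. LPS+HACA against LPS had 2 higher and 0 lower (median 0.71; 6 and 0 at an unadjusted p under 0.05, 3 and 0 with DESeq2, 1 and 0 with limma-voom). In LPS against control, 0 were higher and 5 lower (median −1.11; 1 and 7 at an unadjusted p under 0.05, 0 and 5 with DESeq2 and with limma-voom). Abcd2, a transporter of very long-chain acyl-CoA, had 27.1 and 12.8 CPM in LPS+HACA, 4.43 and 1.06 CPM in LPS and 55.9 and 47.4 CPM in control. It rose in LPS+HACA against LPS (2.86 ± 0.64, adjusted p = 0.0324) and fell in LPS against control (−4.23 ± 0.67, adjusted p = 0.00439). Ech1, a dienoyl-CoA isomerase, had 34 and 34 counts in LPS+HACA, 2 and 4 in LPS and 51 and 34 in control (2.86 ± 0.56, adjusted p = 0.0178, and −3.18 ± 0.56, adjusted p = 0.00456). Protein-coding transcripts held 48.4% of the Ech1 counts. The rise of Abcd2 was lost without either control library or LPS+HACA replicate 1 (adjusted p = 0.0684 to 0.113), and that of Ech1 without either LPS+HACA library (0.0723 and 0.0758) and with limma-voom (0.0547).

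**Figure D3:**
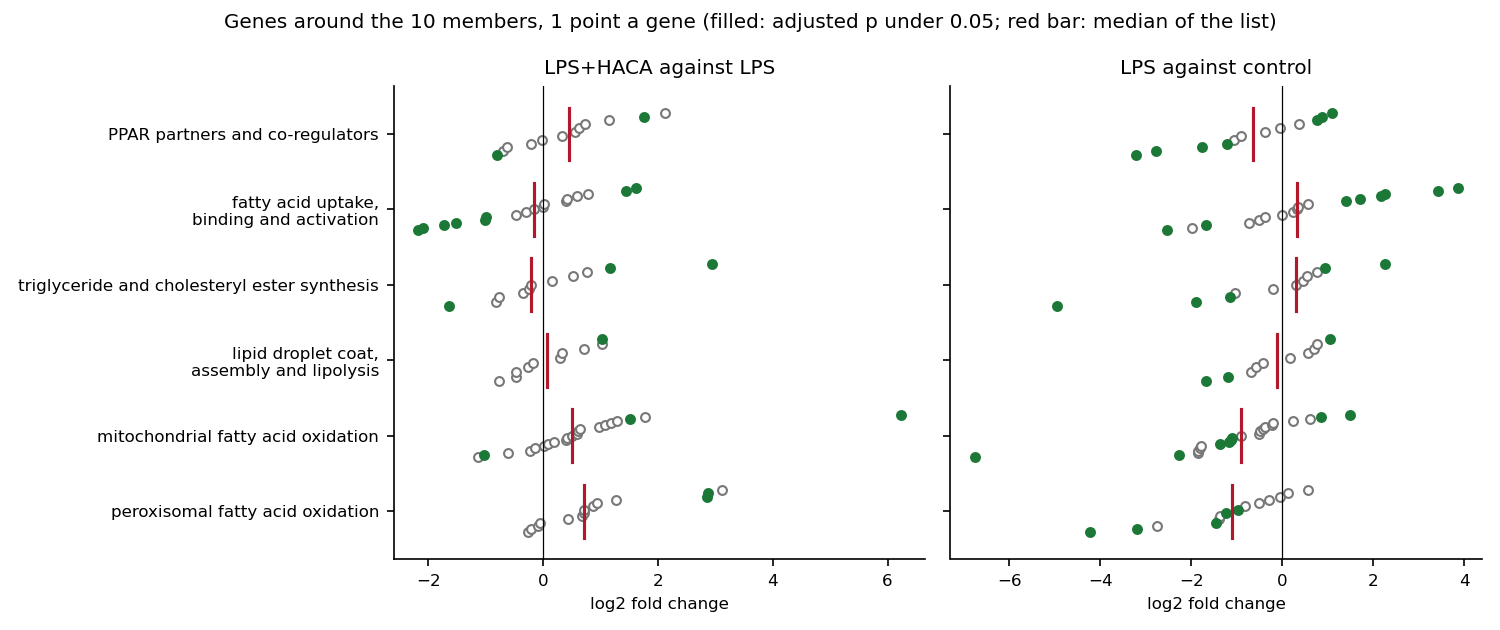
Log2 fold change of each tested gene in 6 lists around the members (1 point a gene, filled where the adjusted p was under 0.05, red bar at the list median), for LPS+HACA against LPS on the left and LPS against control on the right. The peroxisomal list had medians of 0.71 and −1.11, and the point farthest right on the left and farthest left on the right is Acads, whose fitted value depends on the prior count because LPS had 0 counts.

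Over all 6 lists, 85 of 106 genes were tested. Of these, 10 were higher and 9 lower in LPS+HACA against LPS (median 0.33, against 0.06 over all genes), and 14 were higher and 22 lower in LPS against control (median −0.42, against −0.05). These are 22.4% and 42.4% of the tested list genes, beside 13.4% and 30.1% of all genes. The balance between higher and lower depended on the scaling. Library totals gave 27 higher and 4 lower in LPS+HACA against LPS and 5 higher and 42 lower in LPS against control. All genes shifted the same way, with 3501 higher and 522 lower, and 1417 higher and 5111 lower. In LPS+HACA against control, 0 were higher and Rxra alone was lower (5 and 8 at an unadjusted p under 0.05, 2 and 6 with DESeq2, 0 and 2 with limma-voom), with a median of −0.10. For 8 of the 21 list genes named for the size of their change, protein-coding transcripts held under 50% of the counts.

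**Figure D4:**
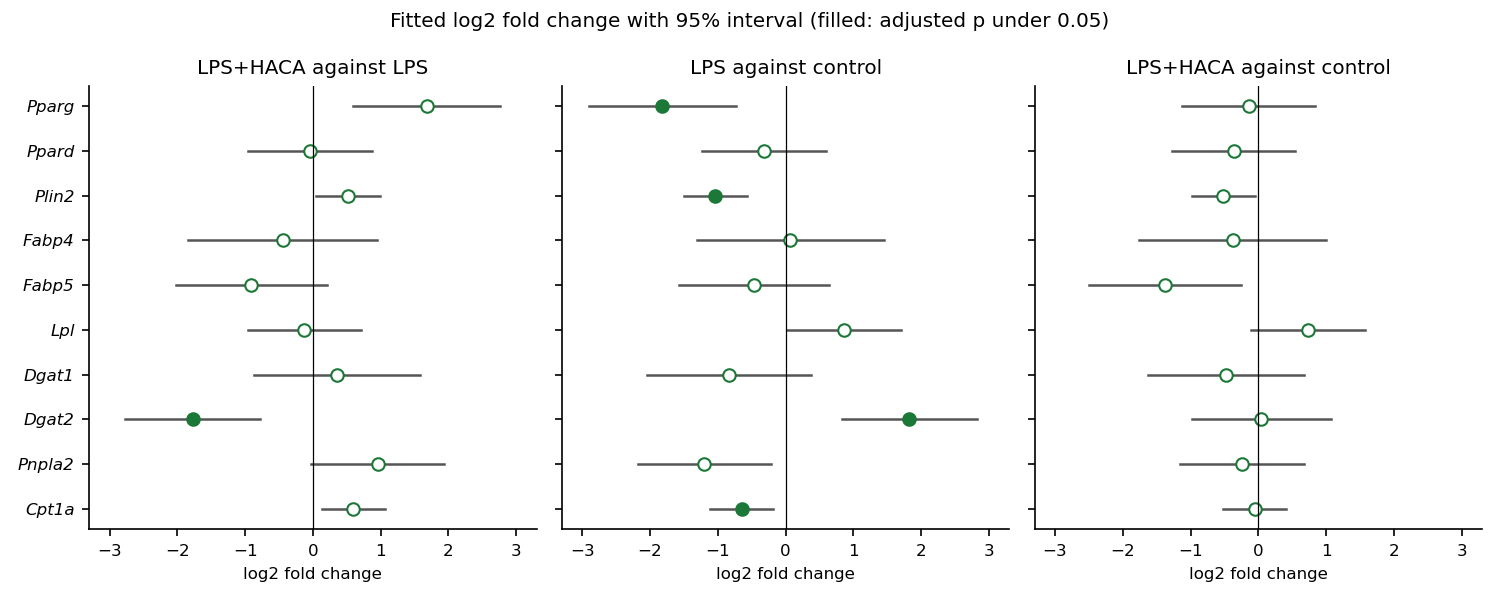
Fitted log2 fold change of the 10 genes with its 95% interval, in LPS+HACA against LPS, LPS against control and LPS+HACA against control from left to right, with filled points where the adjusted p was under 0.05. Dgat2 is filled in the first panel, Pparg, Plin2, Dgat2 and Cpt1a in the second, and no gene in the third.

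The order of the members by authors' FPKM, which divides by transcript length, was led by Lpl, Plin2 and Cpt1a in each group. This order is approximate, because FPKM divides by the whole transcript while the counts lay on bases that are not shared, 26.0% to 85.8% of a member's exonic bases. Plin2 averaged 65.3 FPKM in LPS+HACA, 43.9 in LPS and 108.7 in control, and Cpt1a 44.7, 29.1 and 47.8. The single libraries of Plin2 and Cpt1a did not overlap in any group, with Plin2 the higher. Ppard and Fabp5 came next, at 9.78 and 6.12 FPKM in LPS+HACA, 9.73 and 10.6 in LPS and 12.3 and 13.7 in control, and their libraries overlapped in each group. Pnpla2 and Pparg lay at 3.79 and 3.98 FPKM in LPS+HACA, 2.21 and 1.25 in LPS and 4.64 and 5.10 in control. The group means of Dgat1, Dgat2 and Fabp4 lay between 0.617 and 2.01 FPKM. In control the libraries of these genes did not overlap, with Dgat1 highest and Dgat2 lowest. In LPS both Dgat2 libraries (1.832 and 2.195) stood above those of Dgat1, Fabp4 and Pparg, while Dgat1 and Fabp4 overlapped. In LPS+HACA Fabp4 overlapped with Dgat1 and Dgat2, and Dgat1 stood above Dgat2. Near-identical copies were found for Fabp5, the largest in counts being Gm6166 (98.3% over 409 bases, 1066 counts), and for Plin2 (Gm12551, 96.1% over 259 bases, 14 counts), so reads of Fabp5 in particular may be split between copies. Stretches at least 95% identical to other genes, over 100 bases or more, were also found for Slc27a1, Lmf1, Soat1, Abcd2, Crebbp and Echs1.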

How the data were processed

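TruSeq libraries of poly-A selected RNA were sequenced, per the labels' protocols. Per the submitters' processing notes, which give no role or order, the tools were STAR 2.5.4b, Trim Galore, CASAVA, edgeR 3.28.1, DESeq2 1.26.0 and limma, and the builds GRCh38 and GRCm38. How reads were counted is not given in the sources used here. Per the file headers, the authors deposited raw counts for each transcript and, separately, FPKM values.

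Transcript counts were added up by gene identifier of GENCODE vM21 (GRCm38), and the genes were then named by symbol. Of 142647 transcripts, 141524 matched, in 55263 genes; the 1123 others, at most 0.115% of counts in any library, were left out. The planned test assumed counts per gene, which the sums supplied. Genes were filtered with filterByExpr and libraries scaled by TMM. A quasi-likelihood model in edgeR 4.0.16 (R 4.3.3), with robust dispersion, group as its term and 3 residual degrees of freedom, was fitted to all 6 libraries and tested on simulated data. P-values were adjusted over all 17113 genes, and a gene was called under 0.05. The SE is the size of the log2 fold change over the root of its F statistic. Authors' FPKM were summed per gene and used only to order levels between genes. Replicates differed beyond sampling noise (chi-square per degree of freedom 37.6 with LPS+HACA, 58.3 with LPS, 25.6 in control).

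The members and lists were chosen with earlier results of these data known. Beside the members and fixed partners, the text names up to 2 called genes per list, direction and comparison with the largest change and a mean CPM of at least 1. Alternatives were library totals, DESeq2 size factors, no filter, DESeq2 1.42.0, limma-voom (limma 3.58.1), fits of 2 groups, each gene's main transcript, a replicate block and leaving out each library; protein-coding transcripts alone were added after seeing the data. A group at 0 counts was set to 3 counts, which covers counting error in that group only.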

Additional observations from a re-analysis of the deposited data

How the results depend on the processing

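Of the alternative values of the 10 members, 401 stayed on their side of the threshold, 23 were no longer past it and 20 moved past it; over all named genes these were 1493, 125 and 71, with 2 more that had been called and changed sign. Of the values of members that were called on all data, 0 of 75 changed sign. Of those not called, 28 of 369 did (11 gene and comparison pairs, among them Fabp4, Lpl and Ppard in LPS+HACA against LPS), and 56 of 1081 over all named genes, with 0 past the threshold after the change. The called values that changed sign were both on protein-coding transcripts alone, for Eci2 in LPS+HACA against LPS (0.28) and Abhd5 in LPS against control (−0.30). Library totals also ended the calls of Abhd5 (adjusted p = 0.309) and Eci2 (0.0538) in LPS against control. The causes were not tested. Fits of fewer libraries or transcripts hold fewer counts, and the part of this in the changes was not tested either. Depth limits Dgat1, Dgat2, Pnpla2, Fabp4 and Pparg most, with 136 to 385 counts each over all libraries.

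In LPS+HACA against LPS, 2295 genes were called. That was 4023 under library totals (3501 higher and 522 lower, where TMM gave 983 and 1312), 3600 with no filter, 761 in a fit of these groups alone, 4311 with a replicate block, 1045 on protein-coding transcripts and 368 to 3410 when 1 library was left out. Of the list genes 19 were called, and 31 under library totals, 6 in a fit of these groups alone, 12 on main transcripts, 33 with the replicate block, 9 on protein-coding transcripts and 2 to 21 when 1 library was left out. Members called higher numbered 0, and 4 under library totals (Pparg, Plin2, Pnpla2 and Cpt1a), 1 with no filter, 1 with DESeq2, 2 with the replicate block and 0 to 1 without 1 library. Members called lower numbered 1, and 0 under library totals, in a fit of these groups alone and on protein-coding transcripts, 2 with the replicate block and 0 to 1 without 1 library.

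In LPS against control, 5157 genes were called, 2688 on protein-coding transcripts and 2149 to 5841 when 1 library was left out; library totals gave 1417 higher and 5111 lower, where TMM gave 2715 and 2442. The list genes called were 36, and 16 to 40 without 1 library. Members called higher numbered 1, and 0 under library totals, 2 with no filter and 0 to 1 without 1 library. Members called lower numbered 3, and 5 under library totals and 0 to 3 without 1 library.

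In LPS+HACA against control, 197 genes were called, and 911 with no filter, 666 with DESeq2, 119 with limma-voom, 483 in a fit of these groups alone, 935 with the replicate block, 67 on protein-coding transcripts and 0 to 606 without 1 library. The list genes called were 1, and 7 with no filter, 8 with DESeq2, 2 with limma-voom, 6 in a fit of these groups alone, 11 with the replicate block, 0 on protein-coding transcripts and 0 to 7 without 1 library. Members called higher numbered 0, and 1 with no filter and 0 to 0 without 1 library; members called lower numbered 0, and 1 with no filter, 1 with the replicate block and 0 to 0 without 1 library.

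The titles number replicates 1 and 2 in each group, but nothing says that a number marks a shared culture or day, so the block was not used in the report. Across 17113 genes the differences between replicates correlated at r = 0.498 for LPS+HACA and LPS, 0.308 for LPS and control and 0.509 for LPS+HACA and control. With the block, Pparg (adjusted p = 0.0191), Cpt1a (0.0262) and Fabp5 (0.0146) were called in LPS+HACA against LPS, Pnpla2 (0.0456) in LPS against control and Fabp5 (0.00416) in LPS+HACA against control.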
